A study of Mus musculus with 26 samples.

Results

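YFP-negative liver cells of mice fed the liver toxin DDC for 3 days were compared with all liver non-parenchymal cells of chow-fed mice at day 0. The comparison takes 5 of the 20 arrays with a scanner file, 3 of YFP-negative day 3 cells and 2 of day 0 cells, chosen by the titles of the samples, from a series of 26 samples. Both groups came from Foxl1-Cre; RosaYFP mice aged 6 to 10 weeks. In these mice a recombinase driven by the Foxl1 promoter switches on the yellow fluorescent protein YFP, and the mark stays on in the descendants of the cell. A YFP-negative cell is any sorted cell in which YFP was not seen, so the group mixes cell types, and a cell in which recombination failed would fall into it as well. The day 3 cells were sorted from non-parenchymal cells that lack the leukocyte surface protein CD45. The day 0 cells were neither put on DDC nor, as far as the labels say, sorted on YFP or CD45. The diet and the sort therefore change together between the groups and cannot be told apart. YFP-positive day 3 cells (4 arrays) and YFP-negative cells at days 7 and 14 (3 arrays each) serve for a further question. It is whether the genes named here differed between the sorted fractions or at later days. All 20 arrays also entered the same model and the choice of probes. The arrays outside the comparison therefore helped to set every standard error, p-value and call given here.

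DDC blocks the last step of heme synthesis, and the porphyrin that builds up injures bile ducts and hepatocytes. The injured liver answers with inflammation, an acute phase response, expansion of duct-like cells and activation of stellate cells. The non-parenchymal cells are sinusoidal and vascular endothelial cells, Kupffer cells (the resident macrophages), other leukocytes, stellate cells (which store vitamin A and turn into matrix-producing myofibroblasts after injury) and bile duct cells. In RNA from a mixture, fewer cells of a type and less RNA per cell cannot be told apart.

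A level in the text is a log2 processed signal on a scale where 0 is the 75th percentile of the array, the signal that 75 percent of the measured probes do not exceed. A change is the difference of the group means of these levels, YFP-negative day 3 minus day 0, with its standard error. Levels are listed for arrays 1, 3 and 4 of YFP-negative day 3 cells and then for arrays 1 and 2 of day 0 cells. The share of spots well above background was 88.3, 83.9 and 86.8 percent on the YFP-negative day 3 arrays, against 89.9 and 91.2 percent on the day 0 arrays, within 81.0 to 91.2 percent over all 20 arrays. Array 1 of each group lay on the same slide, and the other 3 arrays lay on 3 further slides. The labels do not say whether arrays of a group came from separate mice, so the p-values measure the spread between these samples, which may be technical.

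Of 26647 genes tested with limma, 12 (0.045 percent) passed an adjusted p of 0.05. They were 3 that rose in YFP-negative day 3 cells (0.0113 percent) and 9 that fell (0.0338 percent). With quantile normalization the calls were 3 rises and 3 falls, and with array weights 30 rises and 43 falls. The median change of all genes was -0.38 and 33.2 percent of the changes were above 0, so a change near -0.38 sits at the middle of all genes. The plot of change against level shows the 3 rises among genes of middle or high signal and the 9 falls at the dim end.

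**Figure D1:**
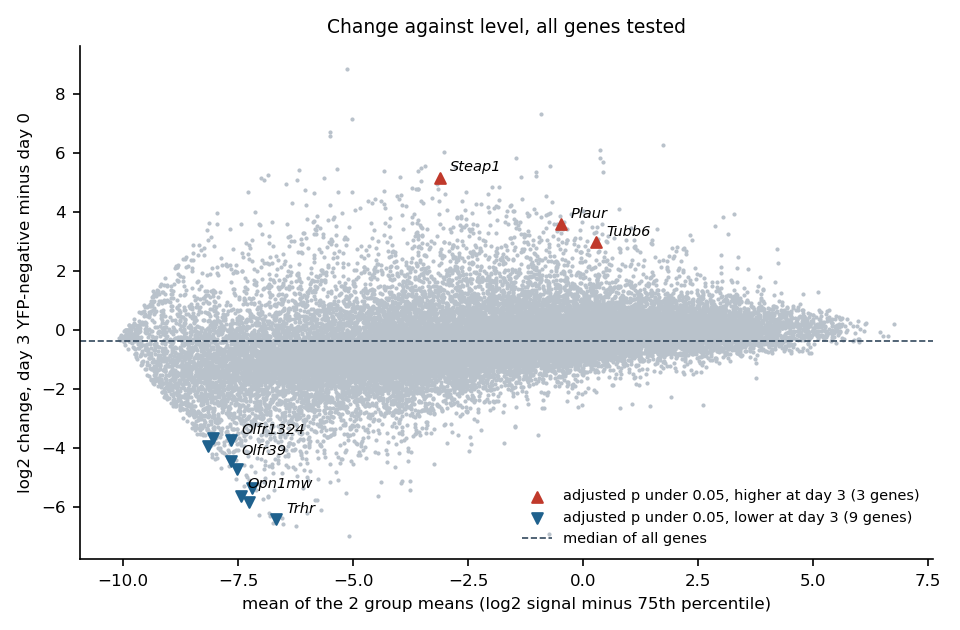
Change of each gene (YFP-negative day 3 minus day 0, log2) against the average of its YFP-negative day 3 and day 0 group means. Levels are log2 relative to the 75th percentile of the array. The 12 genes at an adjusted p under 0.05 are marked. The 9 falls lie among the dimmest genes, and the 3 rises do not.

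The genes that rose were Tubb6, Steap1 and Plaur. Plaur encodes the receptor of urokinase, which focuses the activation of plasminogen at the cell surface. Its levels were 0.98, 1.45 and 1.51 on the YFP-negative day 3 arrays, against -2.84 and -1.75 on the day 0 arrays. The groups did not overlap, and the change was 3.61 ± 0.58, a 12.2-fold rise (limma adjusted p = 0.0340). A further probe of Plaur changed by 1.89, in the same direction. Steap1, a membrane protein of a family of metalloreductases, had levels of -1.42, 0.48 and -0.65 in YFP-negative day 3 cells, against -6.31 and -5.08 in day 0 cells. All 3 day 3 arrays lay above both day 0 arrays, by a change of 5.17 ± 0.82 or 36.0-fold (limma adjusted p = 0.0337), and its further probe changed by 4.40. Tubb6 encodes a beta-tubulin, a building block of microtubules. Its levels were 1.36, 2.27 and 1.73 in YFP-negative day 3 cells, against -1.20 and -1.22 in day 0 cells, a rise of 2.99 ± 0.43 or 7.97-fold (limma adjusted p = 0.0163). The groups did not overlap for this probe, but a dimmer probe of Tubb6 changed by -0.88, the opposite way. In the authors' deposited table the signed fold changes of the same contrast were 10.0 for Plaur, 22.5 for Steap1 and 7.39 for Tubb6, at false discovery rates of 0.67, 1.49 and 0.67 percent. Of 17 alternatives with a test, Plaur and Steap1 passed in 7 each and Tubb6 in 8, and no call held with normexp, with the 5 arrays alone, with a fixed slide term or without array 1 of day 0. The changes ran from 2.75 to 4.15 for Plaur and from 3.73 to 6.14 for Steap1 over all alternatives, and that of Tubb6 was 1.06 as the mean of its probes.

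The probes of the 2 genes whose further probe moved the same way are shown because these rises rest on them. The first 30 of 60 bases are given 5′ to 3′ from the deposited scanner files, with mm9 positions of the whole probe. The Plaur probe lies at chr7:25260569-25260628 on the plus strand and the Steap1 probe at chr5:5736369-5736428 on the minus strand. Exon and untranslated-region annotation of these positions was not used here.
Plaur: ccctcgtgttgtcttctttggacctcagtt
Steap1: ctccaggttgtagaactactgtttgcacat

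A rule that named 12 genes by the smallest unadjusted p among rises also gave genes that missed the adjusted threshold, and these are given as values only. Lrg1, a secreted glycoprotein of the acute phase, had levels of 4.71, 4.84 and 4.27 in YFP-negative day 3 cells, against 2.44 and 1.79 in day 0 cells (change 2.49 ± 0.43, limma adjusted p = 0.0571). Il1rn, the antagonist of the interleukin-1 receptor, had -1.74, -0.23 and -0.15, against -4.42 and -6.89 in day 0 cells (4.95 ± 1.05, adjusted p = 0.228). Ccl9, a chemokine of myeloid cells, had 3.19, 2.97 and 3.71, against -0.97 and -4.15 in day 0 cells (5.85 ± 1.34, adjusted p = 0.312). In none of these did the groups overlap, although the 2 day 0 arrays differed from each other by more than 2 log2 units for Il1rn and Ccl9.

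Gsta2, a glutathione transferase of detoxification, had 3.75, 0.71 and 3.77 in YFP-negative day 3 cells, against -7.36 and -1.83 in day 0 cells (7.34 ± 1.4, limma adjusted p = 0.136). Its signal was well above background on 1 of the 2 day 0 arrays, and the day 3 arrays differed among themselves as well. Of the remaining genes, Aurkb and Pbk belong to the cell cycle. Aurkb, a kinase of chromosome segregation, had -3.86, -2.61 and -3.94, against -8.00 and -9.82 in day 0 cells, where it was not well above background. That made it at least 19.4-fold higher in YFP-negative day 3 cells (adjusted p = 0.160). For such a bound the dim group is set to the lowest signal that any probe of the array has well above background, which is not a detection limit of the gene. Pbk, a mitotic kinase, changed by 4.22 ± 0.91 (adjusted p = 0.253). Nhp2, a protein of small nucleolar ribonucleoproteins, changed by 2.35 ± 0.45 (adjusted p = 0.139) and Sytl2, a factor of vesicle transport, by 3.42 ± 0.78 (adjusted p = 0.312). All genes given here by that rule, falls included, had the same sign in the authors' deposited table.

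**Figure D2:**
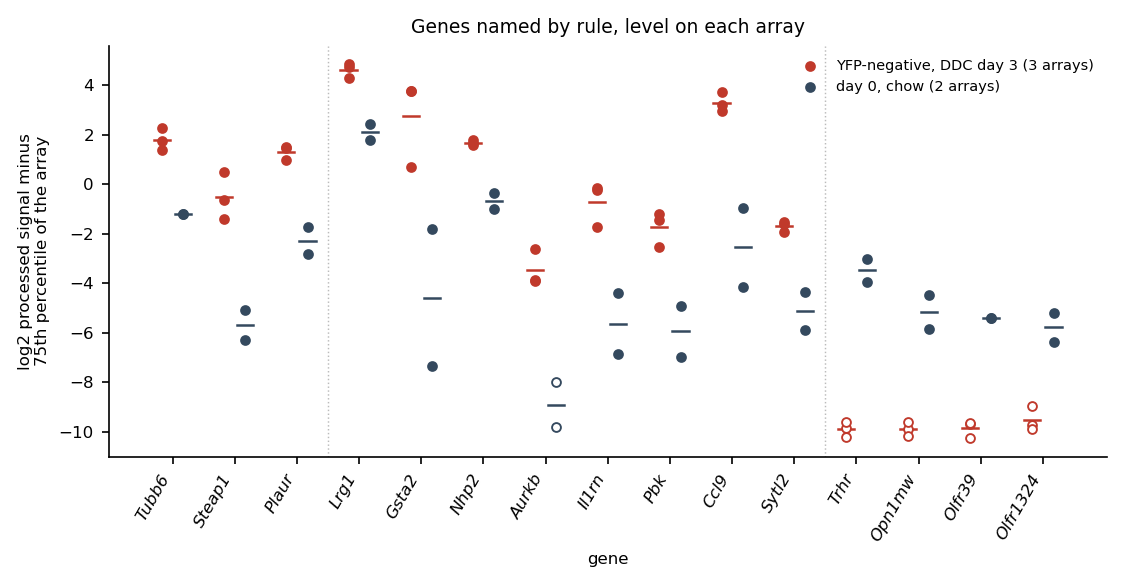
Level of genes named by rule (log2 relative to the 75th percentile of the array), 1 point per array, YFP-negative day 3 left of day 0. Open points mark groups in which no array was well above background: Aurkb at day 0, and Trhr, Opn1mw, Olfr39 and Olfr1324 at YFP-negative day 3.

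The 9 genes that fell were not well above background on any YFP-negative day 3 array and were well above it on both day 0 arrays. Trhr, the receptor of thyrotropin-releasing hormone, had levels of -9.84, -9.63 and -10.21 in YFP-negative day 3 cells, against -3.94 and -3.03 in day 0 cells. It was at least 22-fold lower (limma adjusted p = 7.45e-05). With normexp its change was -0.73, and the call was lost. Opn1mw, a cone opsin of the retina, had -9.90, -9.62 and -10.17, against -4.50 and -5.86 in day 0 cells, at least 6.79-fold lower (adjusted p = 0.000379). The olfactory receptors Olfr39 and Olfr1324 were at least 5.71-fold and 4.43-fold lower (adjusted p = 0.0163 and 0.0337). The groups did not overlap in any of the 4. Of the other 5, Iqcj, named here after its values were seen, was at least 10.7-fold lower, and 4 carry only clone or accession identifiers. In the authors' deposited table the 4 named falls had false discovery rates of 12.9 to 26.1 percent. With normexp background correction Opn1mw, Olfr39 and Olfr1324 changed by 0.29, 0.26 and 0.41, the opposite direction.

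The probes behind these falls are shown because they measure genes of other tissues at the dim end of the array. Median GC content was 38.3 percent in the probes of the 9 falls, against 41.7 percent in all probes. It was 40 percent in the probes of the 3 rises and 41.7 percent in those of 845 olfactory receptor genes. Positions are those of mm9 in the deposited files: chr15:44066781-44066840 on the plus strand for Trhr (first 30 bases), chr9:20090683-20090742 on the plus strand for Olfr39 and chrX:47779446-47779505 on the minus strand for Olfr1324. The Opn1mw probe of 60 bases maps to chrX:71389017-71395936 on the plus strand, a span of 6920 bases.
Trhr: gggaggtaaagtacttcctagtgcttatat
Opn1mw: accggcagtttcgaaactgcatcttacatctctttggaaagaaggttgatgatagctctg
Olfr39: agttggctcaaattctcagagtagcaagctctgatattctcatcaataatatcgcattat
Olfr1324: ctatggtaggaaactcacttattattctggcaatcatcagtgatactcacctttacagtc

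The dim end of the array as a whole lay on the side of these 9 genes with the processed signal. Of the 8883 dimmest genes by mean level, 35.1 percent had all 3 YFP-negative day 3 arrays below both day 0 arrays and 1.71 percent had them above. In the 8882 brightest genes these shares were 14.7 and 20.6 percent, and over all genes 25 percent (6669 genes) and 10.1 percent (2703 genes). Olfactory receptor genes, which have no textbook role in liver, had a median change of -1.24 over 845 genes, which was 0.48 with normexp, where all genes had a median of 0.26. It was below 0 in the other alternatives that were fitted. Of these 444 (52.5 percent) lay below both day 0 arrays on all day 3 arrays, none lay above, and 2 passed the test, both falls. They were well above background for 666, 516 and 623 genes on the YFP-negative day 3 arrays, against 765 and 736 on the day 0 arrays. The part of these detection rates in the falls was not tested.

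Genes of cell division were higher in YFP-negative day 3 cells in most members of both lists made for them, though none passed the test singly. Of 24 genes of mitosis, 22 had a change above 0, 18 had all day 3 arrays above both day 0 arrays, against 10.1 percent of all genes, and none had them below. The median change was 1.55, against -0.38 for all genes. No member passed over all genes, and 9 had an unadjusted p under 0.05, against 508 of all genes in that direction (1.91 percent) and 1191 in the other (4.47 percent). The mean level of the list was -1.49, -0.95 and -1.24 on the YFP-negative day 3 arrays, against -2.75 and -2.90 on the day 0 arrays, so the groups stood apart. The median kept its direction in all 18 alternatives, from 1.02 within the shared slide to 1.92.

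Mki67, the antigen of cycling cells, had levels of 1.33, 2.15 and 1.84 in YFP-negative day 3 cells, against 1.06 and 0.30 in day 0 cells (change 1.09 ± 0.67). Top2a, the topoisomerase that untangles replicated chromosomes, had 0.37, 1.16 and 0.81, against -2.14 and -1.03 in day 0 cells (2.37 ± 0.72). Of 2 further probes of Top2a, 1 changed by -2.92 and 1 by 3.21. For the probes with the highest signal the groups did not overlap in either gene, and for Mki67 the gap was small. Here and in the other lists, the first 2 members were named by rule, and further members were singled out after their values were seen. Among these, Birc5, an inhibitor of apoptosis and a chromosomal passenger protein of mitosis, had 3.89, 4.38 and 3.96, against 2.75 and 1.13 in day 0 cells (2.13 ± 0.62). Ccnb1, the cyclin of entry into mitosis, changed by 2.73 ± 1.13.

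All 24 genes of DNA replication had a change above 0, and the median was 0.79. In 17 of them the day 3 arrays lay above without overlap, beside 10.1 percent of all genes. No member passed over all genes, and 9 had an unadjusted p under 0.05, beside 1.91 percent of all genes in that direction. The mean level of the list was 0.22, 0.24 and 0.01 in YFP-negative day 3 cells, against -0.86 and -1.10 in day 0 cells. The helicase subunits Mcm2 and Mcm3, the first 2 members, changed by 0.41 ± 0.76 and 0.18 ± 0.40. A further probe of Mcm3 changed by 1.38. Larger changes lay in Tk1, the thymidine kinase of nucleotide salvage, with 0.04, 0.27 and -1.09 in YFP-negative day 3 cells, against -2.99 and -4.10 in day 0 cells (3.29 ± 0.82, limma adjusted p = 0.367). Rrm2, the subunit of ribonucleotide reductase that is made in S phase, had -1.05, -0.11 and -0.95, against -3.60 and -3.55 in day 0 cells (2.87 ± 1.03). E2f1, a transcription factor of S phase entry, had 1.0, 0.84 and 0.88, against -1.02 and -1.05 in day 0 cells (1.94 ± 0.78). In these 3 genes every day 3 array lay above both day 0 arrays.

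The cyclins and inhibitors of G1 did not share that pattern: 8 of 15 changes were above 0 and the median was 0.13. Ccnd1 and Ccnd2, the D-type cyclins, changed by -0.71 ± 0.64 and -0.97 ± 0.54. Myc, a transcription factor of growth and an immediate early gene, had 1.5, 1.5 and 1.2 in YFP-negative day 3 cells, against -0.62 and -0.49 in day 0 cells (1.95 ± 0.51, limma adjusted p = 0.450).

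**Figure D3:**
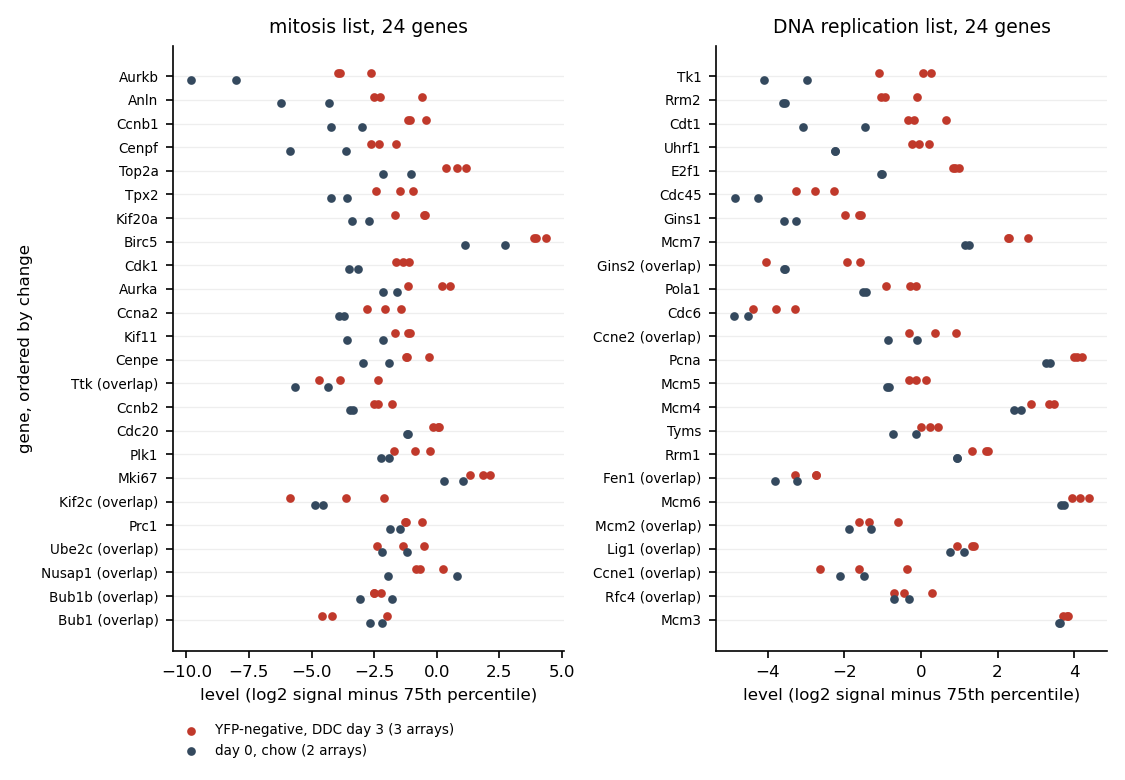
Level of the 24 mitosis and 24 DNA replication genes (log2 relative to the 75th percentile of the array), a strip per gene with 1 point per array of YFP-negative day 3 and day 0. Genes whose groups overlap are marked: 18 mitosis and 17 replication genes have all 3 day 3 arrays above both day 0 arrays.

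Leukocyte genes had high levels in the YFP-negative day 3 cells although these were sorted as CD45-negative. Ptprc, which encodes CD45 itself, had levels of 1.74, 1.57 and 3.45 in YFP-negative day 3 cells, against 1.51 and -1.79 in day 0 cells (change 2.39 ± 2.61). Cd53, a tetraspanin of leukocytes, had 0.98, 1.06 and 2.03, against -0.41 and -3.71 in day 0 cells (3.42 ± 2.01). All 18 pan-leukocyte genes were well above background on all 5 arrays. All 18 had a change above 0, with a median of 2.45, and 14 lay above without overlap, beside 10.1 percent of all genes. However, no member passed over all genes and none had an unadjusted p under 0.05. The mean level of the list was 1.36, 1.26 and 2.37 in YFP-negative day 3 cells, against 0.48 and -1.74 in day 0 cells. The 2 day 0 arrays differed from each other by more than array 1 of day 0 differed from the lower day 3 arrays. The median change was 3.72 without array 1 of day 0, 1.15 without array 2 of day 0, 0.93 within the shared slide and 0.41 with a fixed slide term.

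Macrophage and neutrophil genes were likewise lower on array 2 of day 0 than on the other 4 arrays, and none passed the test. Of 20 Kupffer cell and macrophage genes 19 had a change above 0, and 15 lay above without overlap, beside 10.1 percent of all genes. The mean level of the list was 3.10, 3.20 and 3.58 in YFP-negative day 3 cells, against 2.37 and 0.43 in day 0 cells. The median change was 2.0, and it was 3.06 without day 0 array 1 and 0.77 without day 0 array 2. Clec4f, a lectin of Kupffer cells, had 3.39, 4.11 and 3.37, against 3.27 and 0.72 in day 0 cells (1.63 ± 1.55), and Adgre1, the F4/80 antigen, had overlapping groups (1.69 ± 2.36). All 16 neutrophil genes had a change above 0, 6 of them without overlap (37.5 percent), beside 10.1 percent of all genes. The neutrophil median was 2.70. That median was 4.74 without day 0 array 1, 1.11 without day 0 array 2 and 0.09 with a fixed slide term. S100a8 and S100a9, the calprotectin subunits, had overlapping groups, with S100a8 at 1.1, -0.61 and 3.25 in YFP-negative day 3 cells, against 0.12 and -8.00 in day 0 cells. Chi3l3, a chitinase-like protein of myeloid cells, had 2.78, 2.99 and 4.46, against -0.98 and -4.41 in day 0 cells (6.11 ± 2.28). For the macrophage and neutrophil lists the part of the leukocyte content of the single arrays was not tested.

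Of the other blood cell lists, dendritic cell and MHC class II genes had a median of 1.26 (14 of 16 above 0), with H2-Aa at 1.42 ± 1.71. In that list 6 lay above without overlap and none below, beside 10.1 and 25 percent of all genes. T and NK cell genes had a median of 0.70, with 16 of 22 above 0. Without overlap 3 (13.6 percent) lay above and 2 (9.09 percent) below, beside 10.1 and 25 percent of all genes. B and plasma cell genes had a median of 0.00 (7 of 15 above 0). Over the alternatives the lowest median was -0.26, -0.55 and -0.70 in these 3 lists. The first 2 medians were 2.48 and 1.37 when array 1 of day 0 was dropped, 0.43 and -0.16 when its array 2 was, and 0.73 and -0.09 when array 4 of day 3 was. Erythroid genes had a median of -0.01 over 14 genes, from -2.91 to 1.32 over the alternatives. Hba-a1, an alpha-globin, had 6.27, 6.29 and 6.10 in YFP-negative day 3 cells, against 6.82 and 5.22 in day 0 cells. Platelet genes had a median of -0.60 over 11 genes, and of 0.60 with normexp, where all genes had 0.26. The platelet median was 0.02 when array 1 of day 0 was dropped. It was -0.37 and -0.29 when day 3 lost array 3 and array 4 in turn. No member of these 5 lists passed the test.

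**Figure D4:**
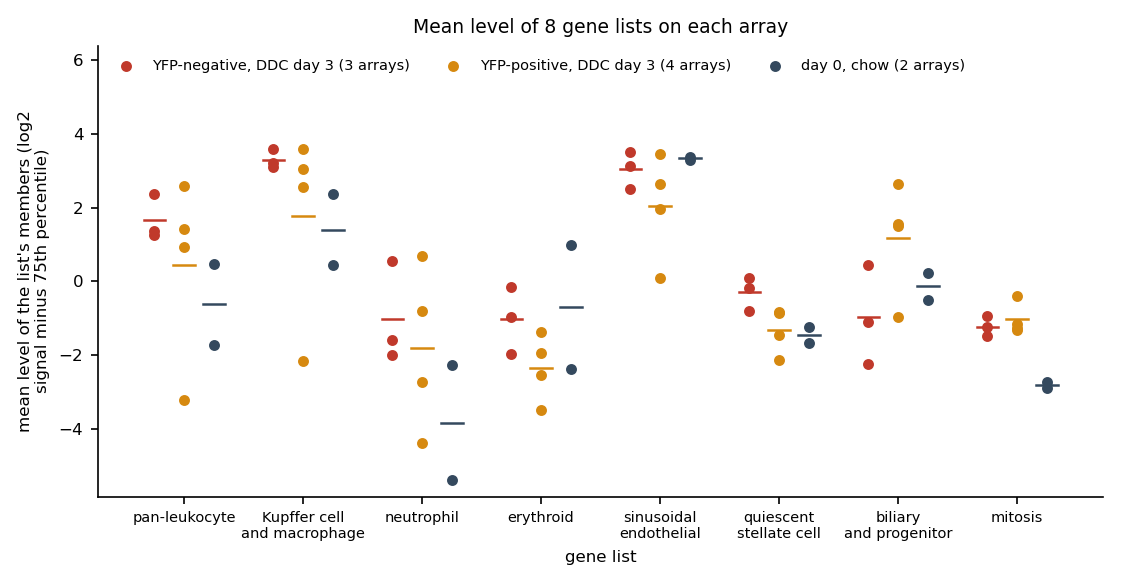
Mean level of 8 gene lists (log2 relative to the 75th percentile of the array) on the YFP-negative day 3, YFP-positive day 3 and day 0 arrays, 1 point per array. The mitosis list separates day 3 from day 0, whereas the pan-leukocyte, Kupffer cell and neutrophil lists differ widely between the 2 day 0 arrays.

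Genes of stellate cells and of fibrillar matrix were mostly higher in YFP-negative day 3 cells. Of 22 quiescent stellate cell genes, 18 had a change above 0. All day 3 arrays lay above both day 0 arrays for 10 (45.5 percent) and below them for 3 (13.6 percent). The shares of all genes were 10.1 and 25 percent. The median of the list was 1.32, and 3 members rose at an unadjusted p under 0.05, beside 1.91 percent of all genes. The mean level was -0.81, 0.10 and -0.17 in YFP-negative day 3 cells, against -1.66 and -1.23 in day 0 cells. Lrat, the enzyme that makes the stored ester of vitamin A, had -0.31, 0.48 and 0.00, against -3.43 and -1.28 in day 0 cells (2.41 ± 0.80, limma adjusted p = 0.656). Gfap and Adamts13, also of this list, lay the other way, at -0.57 ± 0.65 and -0.92 ± 0.70.

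Of 30 myofibroblast and fibrillar matrix genes, 28 had a change above 0, and the median was 1.27. Without overlap 15 lay above and 1 below, beside 10.1 and 25 percent of all genes. The mean level was 0.22, 1.71 and 0.72 in YFP-negative day 3 cells, against -0.72 and -0.41 in day 0 cells, with day 3 array 3 the highest. Acta2, the smooth muscle actin of myofibroblasts, had 4.43, 4.73 and 4.66, against 3.89 and 4.40 in day 0 cells (0.46 ± 0.34), without overlap but with a gap smaller than the spread within either group. Of 4 further Acta2 probes 1 changed the opposite way, by -1.27, and the largest rise among them was 1.42. Col1a1, a chain of type I collagen, had 1.43, 3.47 and 2.26, against 0.05 and 0.42 in day 0 cells (2.16 ± 1.87). Thbs1, thrombospondin 1, a matrix protein that activates TGF-beta, had 0.16, 1.67 and 0.47, against -3.54 and -2.89 in day 0 cells (3.98 ± 1.1, limma adjusted p = 0.507). Tnc, the injury matrix protein tenascin C, changed by 3.62 ± 1.21. Contractile and smooth muscle genes as a list had 10 of 15 above 0. Without overlap 1 lay above and 1 below, beside 10.1 and 25 percent of all genes. The median was 0.26, and it was -0.03 without day 3 array 3 and -0.05 without day 0 array 2.

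Matrix remodelling enzymes had a median of 1.04, and of 0.64 without day 3 array 3, with 20 of 26 above 0. The arrays stood apart with 11 members above and 2 below, beside 10.1 and 25 percent of all genes. Plaur, the only member of any list that passed over all genes, belongs here. Mmp12, the macrophage elastase, had -1.05, -0.80 and -0.26 in YFP-negative day 3 cells and was not well above background in day 0 cells, at -9.55 and -9.59. That made it at least 132-fold higher (limma adjusted p = 0.335). In the authors' deposited table its signed fold change was 308. Mmp2 and Mmp3, a gelatinase and stromelysin 1, had overlapping groups (1.18 ± 1.45 and 2.10 ± 1.32).

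The acute phase and inflammatory genes were higher in part. Of 16 acute phase genes, 13 had a change above 0, with a median of 1.90. Members without overlap were 9 above and none below, beside 10.1 and 25 percent of all genes. At an unadjusted p under 0.05, 3 members rose, beside 1.91 percent of all genes. The serum amyloids Saa1 and Saa2 changed by 1.82 ± 0.89 and 3.36 ± 1.78, with Saa2 at 1.41, -1.42 and 1.45 in YFP-negative day 3 cells, against -3.74 and -2.01 in day 0 cells. Serpina3n, a serine protease inhibitor of the acute phase, had 1.66, 3.78 and 1.22, against -1.50 and -0.28 in day 0 cells (3.11 ± 0.92). In these genes the groups did not overlap, and day 3 array 3 was the lowest for Saa2 and the highest for Serpina3n. Hepatocyte genes stood beside them with 21 of 29 above 0. Without overlap 7 lay above and 1 below, beside 10.1 and 25 percent of all genes. The hepatocyte median was 0.85. That median was 0.25 without day 3 array 4 and 1.46 without day 3 array 3. Their mean level was 0.05, -1.74 and 0.99 in YFP-negative day 3 cells, against -1.15 and -0.70 in day 0 cells, again with day 3 array 3 the lowest. Alb, albumin, had 4.30, 4.56 and 5.28, against 4.42 and 3.81 in day 0 cells, and Apoa1, an apolipoprotein, changed by 1.47 ± 1.68. The part of hepatocyte RNA in the acute phase values was not tested.

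Of 28 inflammatory signal genes, 18 had a change above 0. The groups stood apart for 9 above (32.1 percent) and 4 below (14.3 percent), beside 10.1 and 25 percent of all genes. The median was 0.73, and it was 1.18 without day 3 array 1 and 0.48 without day 0 array 2. Ccl2 and Ccl7, chemokines that draw monocytes, had no overlap. Ccl2 had 0.28, 0.63 and 0.85 in YFP-negative day 3 cells, against -1.83 and -1.51 in day 0 cells (2.26 ± 0.78, limma adjusted p = 0.665), and Ccl7 changed by 2.88 ± 1.36. Cxcl14, another chemokine, had 0.11, 0.17 and 0.47, against -4.17 and -4.56 in day 0 cells (4.62 ± 1.25). Cxcl13, which draws B cells, lay the other way, at -5.47, -2.08 and -5.27, against 0.23 and -1.54 in day 0 cells (-3.62 ± 1.44). Interferon-induced genes differed from this picture. Of 28, only 7 had a change above 0, and 12 lay below both day 0 arrays on all day 3 arrays, beside 25 percent of all genes. The median was -0.34, close to the -0.38 of all genes. The list mean, however, lay among the levels of the 8882 brightest genes. These had a median of 0.02, and 14.7 percent of them lay below without overlap, against 42.9 percent of the list. The list median ran from -0.58 without day 3 array 1 to -0.05 with median scaling, where all genes had -0.09. It was -0.22 without day 3 array 3. Isg15 and Ifit1 changed by 0.03 ± 0.73 and -0.70 ± 1.0.

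Genes of detoxification and heme were read because DDC acts on heme synthesis. Of 28 NRF2 targets and glutathione genes, 26 had a change above 0, with a median of 0.82. Without overlap 16 lay above and 1 below, beside 10.1 and 25 percent of all genes. At an unadjusted p under 0.05, 6 members rose, beside 1.91 percent of all genes. The mean level was 1.56, 1.27 and 1.96 in YFP-negative day 3 cells, against 0.47 and 0.17 in day 0 cells. The first members, Nqo1, a quinone reductase, and Gclm, a subunit of the enzyme that starts glutathione synthesis, changed by 0.12 ± 0.59 and 0.20 ± 1.11 with overlapping groups. Gsta1, a glutathione transferase, had 3.85, 0.79 and 3.66, against -1.05 and -0.34 in day 0 cells (3.46 ± 0.87). Hmox1, the oxygenase that degrades heme and is high in macrophages, had 3.18, 3.34 and 4.23, against 0.84 and 0.94 in day 0 cells (2.69 ± 1.02). Of 22 genes of heme synthesis and iron, 14 had a change above 0 and the median was 0.27. Alas1 and Alad, the enzymes of the opening steps of heme synthesis, changed by 0.04 ± 0.41 and 0.02 ± 0.73. Their further probes changed by 0.40 and -0.40. Fech, the ferrochelatase that DDC inhibits through its product, had 2.04, 2.47 and 3.01 in YFP-negative day 3 cells, against 4.34 and 1.77 in day 0 cells. Steap4, a metalloreductase of the family of Steap1, had -1.13, -0.89 and 0.36, against -4.06 and -2.43 in day 0 cells (2.69 ± 0.66, limma adjusted p = 0.341).

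Bile duct genes were low on 2 of the 3 YFP-negative day 3 arrays. The mean level of the 25 biliary and progenitor genes was -2.25, 0.44 and -1.11, against 0.22 and -0.50 in day 0 cells, so that day 3 array 3 lay above both day 0 arrays. Of these genes 2 had a change above 0, beside 33.2 percent of all genes, and the median was -0.76, against -0.38 for all genes. Only 5 of the 25 lay below without overlap, no more than the 25 percent of all genes that did. The median was -1.33 without day 3 array 3, -0.23 without its array 1, -0.32 when array 1 of day 0 was dropped and -2.33 within the shared slide. Krt19, a keratin of bile duct cells, had -3.18, 1.53 and -1.78, against -0.07 and -1.47 in day 0 cells. Krt7, another duct keratin, changed by -0.84 ± 1.60, and a further Krt7 probe by 0.03. Pkhd1, the fibrocystin of duct cilia, had -6.05, -1.68 and -5.36, against -0.06 and -0.93 in day 0 cells (-3.86 ± 1.60). Mesothelial genes had a median of -0.53 (3 of 11 above 0), which ran from -1.29 with day 3 array 3 dropped to -0.20 with day 3 array 4 dropped, and was -1.08 or -0.27 when array 1 or 2 of day 0 was dropped. Upk3b, a uroplakin of the mesothelium, had -8.82, -4.48 and -7.60, against -2.36 and -3.12 in day 0 cells, while Msln, mesothelin, had overlapping groups.

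Endothelial lists had medians between -0.37 and 0.88. Of 22 sinusoidal endothelial genes, 18 had a change below 0 and 8 lay below without overlap, beside 25 percent of all genes. The median of -0.37 lay at the -0.38 of all genes. The list mean, however, lay among the levels of the 8882 brightest genes. These had a median of 0.02, and 14.7 percent of them lay below without overlap, against 36.4 percent of the list. The list median was -0.63 without day 3 array 1, -0.16 without day 3 array 3 and 0.27 with a fixed slide term. The mean level was 3.50, 2.5 and 3.14 in YFP-negative day 3 cells, against 3.38 and 3.30 in day 0 cells, with overlap. Stab2, a scavenger receptor of sinusoids, had 4.35, 3.30 and 4.55, against 4.61 and 4.80 in day 0 cells (-0.64 ± 0.77). Its relative Stab1 changed by -0.23 ± 0.90, and a further Stab1 probe by 0.17. Vascular endothelial genes had a median of -0.04 over 25 genes. Of these 5 lay above and 3 below without overlap, beside 10.1 and 25 percent of all genes. The adhesion molecules Pecam1 and Cdh5 changed by 0.06 ± 1.04 and -0.33 ± 0.77. A further probe of each moved the opposite way, by -1.71 for Pecam1 and 0.12 for Cdh5. Ly6c1, a surface protein of endothelial cells and monocytes, had 1.32, 1.99 and 1.23, against -0.73 and -0.32 in day 0 cells (2.04 ± 0.74). Lymphatic endothelial genes had a median of 0.88 (7 of 9 above 0), which was 0.28 without day 3 array 3 and 1.65 without day 3 array 1. Prox1, the transcription factor of lymphatic identity, was at -1.65 ± 1.07 with overlap.

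Signalling lists had medians between -0.66 and 0.14, around the -0.38 of all genes. They were 0.14 for 30 TGF-beta and BMP genes, -0.50 for 32 Wnt genes, -0.18 for 20 Notch genes, -0.66 for 14 Hedgehog genes and -0.32 for 30 PDGF, VEGF and angiopoietin genes. Without overlap 6, 3, 0, 1 and 4 of their members lay above and 3, 6, 6, 3 and 8 below, beside 10.1 percent of all genes above and 25 percent below, so most of these counts lie near or under the shares of all genes. The PDGF, VEGF and angiopoietin list had mean levels of 0.38 at YFP-negative day 3 and 0.50 at day 0, where the brightest genes lie. Of these genes 14.7 percent lay below, against 26.7 percent of the list. The Wnt median was -0.21 without day 0 array 1 and -0.85 without day 0 array 2. With normexp the Wnt and Hedgehog medians were 0.14 and 0.18, where all genes had a median of 0.26. The Notch median reached 0.11 with median scaling. The receptor Notch1 had 3.03, 3.07 and 2.61 in YFP-negative day 3 cells, against 3.36 and 3.37 in day 0 cells (-0.46 ± 0.68). Dll4, an endothelial Notch ligand, had -1.25, -1.64 and -1.86, against -0.53 and -0.35 in day 0 cells (-1.15 ± 0.66). Wnt2, a ligand of sinusoidal cells, Tgfb1 and Pdgfa had overlapping groups. Bmp5, a ligand of the BMP family, had -0.67, 1.90 and 0.16, against -5.55 and -0.88 in day 0 cells.

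Of 27 hypoxia and glycolysis genes, 17 had a change above 0, with a median of 0.45. Members without overlap were 12 above and 3 below, beside 10.1 and 25 percent of all genes. Vegfa, the endothelial growth factor, changed by -1.37 ± 0.93 and the glucose transporter Slc2a1 by 0.43 ± 0.94. Gapdh, a glycolytic enzyme, had 3.86, 3.94 and 4.05 in YFP-negative day 3 cells, against 3.06 and 2.69 in day 0 cells (1.08 ± 0.37). Genes of the unfolded protein and amino acid stress response had a median of 0.28, with 18 of 23 above 0. Without overlap 8 lay above and 1 below, beside 10.1 and 25 percent of all genes. The chaperones Hspa5 and Hsp90b1 changed by 0.29 ± 0.45 and 0.22 ± 0.35, and a further Hsp90b1 probe by -0.03. Immediate early and stress genes had a median of 0.05 over 27 genes, and Fos and Fosb, subunits of AP-1, overlapped between the groups. Egr2, a zinc finger transcription factor of this list, had 1.5, 2.06 and 1.81, against -0.46 and -1.23 in day 0 cells (2.64 ± 1.06).

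**Figure D5:**
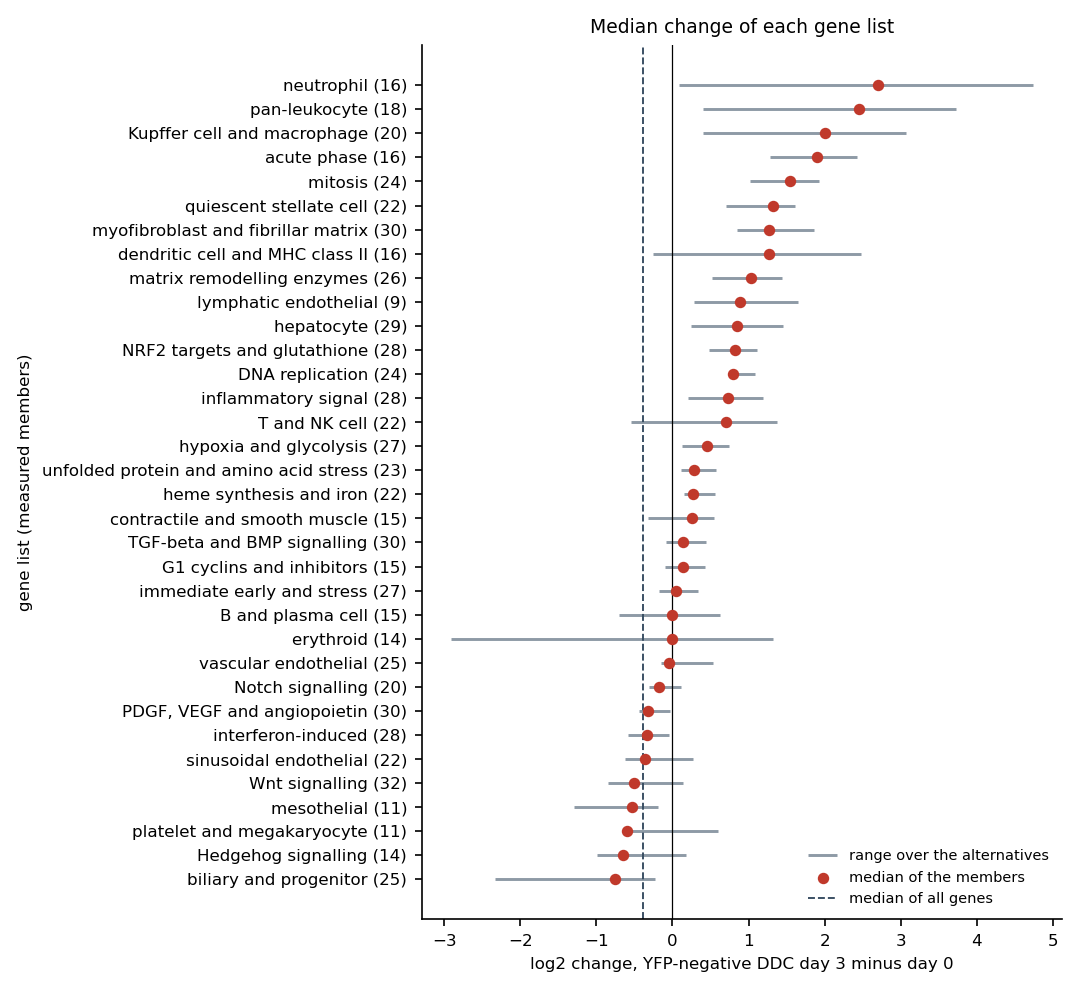
Median change of each of the 34 gene lists (YFP-negative day 3 minus day 0, log2), with a bar for its lowest and highest value over the alternatives and a dashed line at the median of all genes, -0.38. Lists that stay above 0 in every alternative include mitosis, DNA replication, stellate cell, acute phase, pan-leukocyte, Kupffer cell and neutrophil. The erythroid list is among those that cross 0.

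Whether the genes named here marked YFP-negative cells was asked against YFP-positive cells of the same day, diet and CD45 gate, a comparison that shares the YFP-negative day 3 arrays. No gene passed with limma (0 percent of 26647), and 2097 genes (7.87 percent) had an unadjusted p under 0.05. YFP-negative minus YFP-positive cells, the difference was 0.02 ± 0.36 for Tubb6, 0.19 ± 0.68 for Steap1 and -0.31 ± 0.48 for Plaur. The list medians of this difference were -0.24 for mitosis and -0.34 for DNA replication. They were 1.09 for pan-leukocyte, 1.17 for quiescent stellate cell, 1.75 for myofibroblast and -2.44 for biliary genes. The mean level of the mitosis list was -1.23 ± 0.27 in YFP-negative cells (SD, n = 3) and -1.04 ± 0.44 in YFP-positive cells (SD, n = 4), beside -2.82 ± 0.11 in day 0 cells (SD, n = 2). The pan-leukocyte list was at 1.66 ± 0.61 in YFP-negative and 0.43 ± 2.53 in YFP-positive cells, where 1 array lay at -3.21. Krt19, as the duct marker, was lower in YFP-negative than in YFP-positive cells by a difference of -3.22 ± 1.26, which did not pass over all genes.

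Later YFP-negative cells share the fraction and the gate with day 3, and no gene passed with limma at day 7 or day 14 against day 3. Genes with an unadjusted p under 0.05 were 980 (3.68 percent) at day 7 and 989 (3.71 percent) at day 14. Plaur had mean levels of 1.31 at day 3, 1.91 at day 7 and 1.39 at day 14, and differed from day 3 by 0.60 ± 0.52 and 0.07 ± 0.52. Steap1 differed from day 3 by -1.15 ± 0.73 at day 7 and -0.57 ± 0.73 at day 14. Tubb6 differed by 0.21 ± 0.38 at day 7 and by -1.33 ± 0.38 at day 14, its mean level at day 14 being 0.46. Trhr was not well above background at day 3, so no difference is given for it. Its mean levels were -9.89 at day 3, -7.18 at day 7 and -10.00 at day 14, beside -3.49 in day 0 cells. It did not pass at day 7 against day 3 (limma adjusted p = 0.460). The list medians of the day 14 difference were -2.76 for pan-leukocyte, -2.69 for Kupffer cell and macrophage, 0.82 for quiescent stellate cell and -0.44 for mitosis genes.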

How the data were processed

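Per the labels' protocols, total RNA was taken up in Trizol, cleaned with an RNeasy kit, amplified by WT-Ovation Pico and labelled with Cy3. The deposited scanner files give a processed intensity for each spot, already corrected for background but not set between arrays, from Feature Extraction 10.5.1.1 per the file headers (9.53 per the submitters' processing notes). Mean and background intensities, used in an alternative, are in the same deposited files. The authors' deposited fold changes against day 0 are a signed score, beside a score for the false discovery rate in percent. How they were made is not given in the sources used here. For this contrast 1382 of 42175 probes were higher and 41 lower at a rate under 5 percent in the authors' deposited values. Columns for other contrasts, 10 in number, were not used.

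Control and outlier spots were dropped and spots of a probe averaged. Of 41174 probes, 39591 were well above background on at least 2 of 20 arrays. Each of 26647 genes, 8646 with several probes, took the probe of highest mean signal, and 277 lack a value on some array. Gene names came from RefSeq for GRCm38.p6, names only. Accessions matched 16246 genes and gave 2313 of them a newer name, symbols matched 2385 and synonyms 859, and 7157 stayed as on the array. All 7 groups entered 1 model in limma 3.58.1 with R 4.3.3 (moderated test, 2.31 prior and 13 residual degrees of freedom, Benjamini-Hochberg over all genes, threshold 0.05), tested on simulated data. The packages statmod 1.5.0, jsonlite 2.0.0 and data.table (version 1.17.8) were also used. An exact permutation test of 3 against 2 arrays cannot go below 0.1 and was not run. The number of arrays limits the precision.

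By rule, the text names at most 12 genes a direction that passed, had no overlap of arrays and were measured on the whole higher group. Where fewer than 5 passed, the 12 with the smallest unadjusted p stand in as values. The first 2 members of each of 34 lists (701 of 705 genes measured) were added, and genes with bare clone, predicted or accession identifiers were only counted. Members, lists and rule were chosen with earlier results of these data known. Alternatives were normexp (offset 50), quantile and median scaling, other probe filters and summaries, the 5 arrays alone, slide terms, array weights and leaving out each array. The results of a few genes that the rule names are not reported here, and 6 samples were not analysed here.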

Additional observations from a re-analysis of the deposited data

Results flagged for a closer look

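Among the 16 genes named by rule, checked in the 4 YFP-positive day 3 arrays, single arrays stood apart for 2. Nhp2 was at 1.09 on array 3, while the other arrays lay between 1.96 and 2.01. Aurkb was at -6.57 on array 4, while the others lay between -3.97 and -3.76. In each case the gap to the nearest array exceeded the critical value of Dixon's test, which chance exceeds in about 1 in 20 groups. The differences of both genes between YFP-negative and YFP-positive cells, -0.10 ± 0.38 for Nhp2 and 1.06 ± 0.91 for Aurkb, include these arrays.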

How the results depend on the processing

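The 12 genes that passed for YFP-negative day 3 against day 0 became 0 with normexp, with only probes well above background on all 5 arrays and with only the 5 arrays in the fit, 6 with quantile normalization, 2 with a fixed slide term and 73 with array weights. They became 20 with dim levels raised to 1 floor and 1 with only genes well above background on all 20 arrays, both settings chosen after seeing the data. Leaving out an array gave 3 to 40, the most when array 2 of day 0 was dropped, against 4 when array 1 of day 0 was dropped, and 3 to 5 when a day 3 array was dropped. At an unadjusted p under 0.05 the limma counts of the settings with 0 calls were 712, 1141 and 2936. The other alternatives gave 10 to 13. Opn1mw, Olfr39 and Olfr1324 reversed with normexp, to 0.29, 0.26 and 0.41, and the cause was not tested. The 1 list member that passed became 0 with normexp, the probe filter on 5 arrays, the fit of 5 arrays, a fixed slide term and the filter on 20 arrays, 8 with array weights and 0 to 2 when an array was left out. The median of all genes ran from -0.44 to 0.26.

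The counts of 0 in the other comparisons became 0 to 7 between the fractions (7 without YFP-positive array 3, 1 without YFP-negative array 4), 0 to 10 at day 7 (10 for array 1 and 2 for array 4 of day 7, and 1 for array 4 of day 3) and 0 to 2 at day 14 (2 without day 14 array 2) when an array was left out. They became 1 at day 7 with no filter on dim probes and 1 at day 14 with array weights. No paired analysis was possible because YFP-negative day 3 and day 0 share only replicate number 1. In the other comparisons the replicate block gave 0 genes, and same-numbered arrays deviated together with correlations of -0.11 to 0.23, so the numbers were not taken to pair the samples. Of the 34 list medians, those of neutrophil and erythroid genes varied most with the day 0 array left out, from 1.11 to 4.74 and from -2.11 to 1.32.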
